A study of Mus musculus with 101 samples.

Results

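The genes described here are 29 genes of cholesterol synthesis, its control, and the uptake, transport, efflux and storage of cholesterol, out of 24475 genes in tables of estimated counts from mouse white fat. They were taken by name from a list of pathway genes and joined to the tables by Entrez gene ID. They comprise 18 synthesis genes, 4 genes of the SREBP control system, 4 of uptake and transport, and 3 of efflux and storage, and all 29 passed the filter on low counts in every comparison. The 101 libraries come from subcutaneous and epididymal fat. The mice were males of the C57BL/6NTac strain, and there were 2 experiments on Inhbe, the gene for the chain of activin E, a hormone made by the liver. In the overexpression experiment, chow-fed mice carried an AAV8 vector that expressed either GFP (the control) or mouse Inhbe (mInhbe) in the liver, with 10 libraries per vector and depot. In the KO experiment, WT mice and Inhbe KO mice ate chow or a high-fat diet (HFD). Subcutaneous fat gave 8 libraries of WT and 7 of KO mice on chow, and 7 of WT and 8 of KO mice on HFD, and epididymal fat gave 8, 7, 8 and 8. The sources used here do not give age, time on the diet, vector dose or the design of the KO allele.

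Cells make cholesterol from acetyl-CoA by way of mevalonate, squalene and lanosterol. SCAP, a cholesterol sensor of the endoplasmic reticulum, escorts the transcription factor SREBP-2 (gene Srebf2) to the Golgi, where it is cut and released to switch on the synthesis genes. INSIG proteins hold SCAP back when sterols are plentiful, and Insig1 is itself a target of SREBP. Sterol excess acts through the LXR receptors on Abca1, Abcg1 and Mylip. Fat cells keep much free cholesterol in membranes and at the lipid droplet, and macrophages that take up lipid store cholesteryl ester, which the product of Soat1 makes.

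Library totals ran from 12970509 to 20170746 estimated counts, so that 3 counts stand for 0.149 to 0.231 CPM (counts scaled to a library total of 1000000). Such a floor covers counting error only. Inhbe was at 0 in all GFP libraries, and with mInhbe it ran from 2.42 to 46.0 CPM in subcutaneous and from 0.240 to 15.8 CPM in epididymal fat. In the KO experiment no library exceeded 0.334 CPM, WT included, so its level in fat does not check the genotype. The 7 adipocyte markers, such as Adipoq and Plin1, summed to at least 10390 CPM in every library. In whole tissue, fewer cells of a type and less RNA per cell cannot be told apart.

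A promoter from RefSeq (GRCm38.p6, 250 bases before to 50 after the start) was matched for 23 of the 29 genes. On both strands, a classical form of the sterol regulatory element, TCACNCCAC, was found in 1 of the 23, Hmgcs1, against 1.44% of all 27025 genes with a promoter in the table. The CCAAT box, a site of NF-Y, a factor known to act beside SREBP, was found in 20 of 23, including 14 of 15 synthesis genes, against 41.1% of all genes. Abca1, Scap and Acat2 held no CCAAT letters in this window. A match is a description of letters and not of binding. The 250 bases before the start are shown for Hmgcs1, Mvk and Insig1, whose transcripts rose on HFD in both depots and both genotypes, and for Acat2, a synthesis gene that was not called on HFD in WT fat. They lie at chr13:119690101-119690350, chr5:114444019-114444268 and chr5:28071162-28071411 on the plus strand and chr17:12960726-12960975 on the minus strand. Each runs 5′ to 3′ along the gene, with capitals for matches to either motif (ATTGG is CCAAT on the other strand).
Hmgcs1: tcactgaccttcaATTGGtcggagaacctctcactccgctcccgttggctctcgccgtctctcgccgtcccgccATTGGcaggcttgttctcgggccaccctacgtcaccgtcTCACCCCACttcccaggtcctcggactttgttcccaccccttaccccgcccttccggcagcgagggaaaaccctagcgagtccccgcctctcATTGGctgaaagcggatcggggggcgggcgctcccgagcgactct
Mvk: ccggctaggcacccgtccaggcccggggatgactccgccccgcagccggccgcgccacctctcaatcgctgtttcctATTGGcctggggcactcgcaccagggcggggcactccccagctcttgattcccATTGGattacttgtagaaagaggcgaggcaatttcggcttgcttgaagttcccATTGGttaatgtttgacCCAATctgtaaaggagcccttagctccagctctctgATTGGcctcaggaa
Insig1: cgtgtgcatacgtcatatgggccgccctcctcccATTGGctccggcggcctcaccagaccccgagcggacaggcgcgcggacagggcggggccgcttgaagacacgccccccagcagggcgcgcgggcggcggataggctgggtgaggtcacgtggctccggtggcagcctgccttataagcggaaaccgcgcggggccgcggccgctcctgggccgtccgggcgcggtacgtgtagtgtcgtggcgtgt
Acat2: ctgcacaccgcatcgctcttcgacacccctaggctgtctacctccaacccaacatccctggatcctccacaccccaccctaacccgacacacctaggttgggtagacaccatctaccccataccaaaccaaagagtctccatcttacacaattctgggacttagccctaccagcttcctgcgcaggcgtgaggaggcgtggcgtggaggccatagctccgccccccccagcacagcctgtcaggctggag
In Hmgcs1 the sterol element stands between CCAAT matches and shares no base with them. Mvk carries 5 CCAAT matches and Insig1 carries 1, with no sterol element of this form, and Acat2 carries neither motif.

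Between genes, levels are compared as CPM per kb of exon, averaged over the 12 groups. Npc2, a lysosomal cholesterol carrier, was highest at 106 CPM per kb, followed by Insig1 at 70.5 and Hmgcs1, the cytosolic HMG-CoA synthase, at 66.4. The efflux pump gene Abca1 stood at 36.0 and Acat2, a cytosolic thiolase with a close copy in Acat3, at 34.4. The other 24 genes ran from 22.5 (Sc5d, sterol C5-desaturase) down to 1.53 CPM per kb (Tm7sf2, a sterol C14-reductase). Soat1 ranged from 1.80 to 18.1 CPM per kb between groups, and Hmgcs1 from 30.3 to 134.

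**Figure D1:**
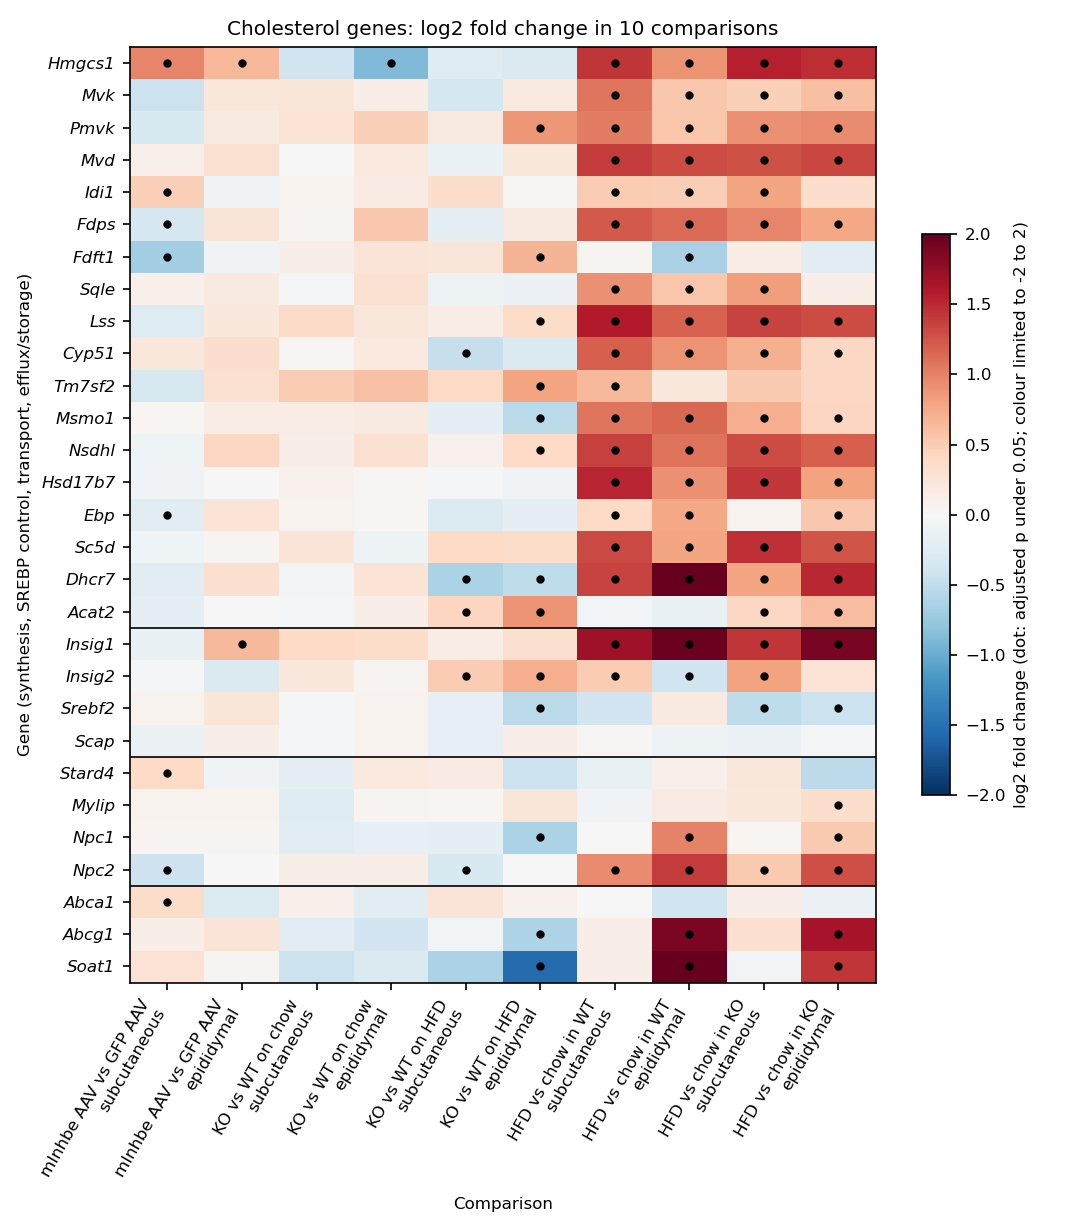
Colour gives the log2 fold change of each gene (vertical, grouped by role) in 10 comparisons (horizontal), with colour limited to between -2 and 2, and a dot marks an adjusted p under 0.05. The 4 comparisons of HFD with chow carry most of the dots, and KO against WT on chow carries 1, for Hmgcs1 in epididymal fat.

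HFD was compared with chow in each genotype and depot. In WT subcutaneous fat HFD raised 16 of 18 synthesis genes and lowered 0, with a median log2 fold change of 1.14 against -0.03 over all genes tested. Over the 29 genes 19 rose and 0 fell, where 22.6% of all genes rose and 21.5% fell (edgeR quasi-likelihood test, Benjamini-Hochberg adjusted p under 0.05 over all genes, as for every call here). In KO subcutaneous fat 15 synthesis genes rose (median 0.82 against -0.04), and over the 29 genes 18 rose and 1 fell, against 11.7% and 9.05%. In WT epididymal fat 15 synthesis genes rose and 1 fell (median 0.84 against -0.02), with 20 and 2 of the 29, against 28.9% and 25.2%. In KO epididymal fat 14 rose and 0 fell (median 0.69 against 0.00), with 20 and 1 of the 29, against 24.7% and 13.9%.

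A core of 12 synthesis genes rose on HFD in all 4 comparisons: Hmgcs1, Mvk, Pmvk, Mvd, Fdps, Lss, Cyp51, Msmo1, Nsdhl, Hsd17b7, Sc5d and Dhcr7. Of all genes, at most 11.7% could rise in all 4, the share that rose in KO subcutaneous fat. These 12 genes rose together along the pathway. They reach from HMG-CoA synthase through the mevalonate kinases and decarboxylase, farnesyl diphosphate synthase and lanosterol synthase to the enzymes that trim lanosterol and complete the sterol. Idi1, Sqle and Ebp rose in 3 of 4, Tm7sf2 and Acat2 in 1 or 2, and Fdft1, squalene synthase, in 0.

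At the head of the pathway, Hmgcs1 ran from 176 to 392 CPM in WT subcutaneous fat on chow (median 217) and from 167 to 880.0 CPM on HFD (median 634). HFD library 6 lay below every chow library, and 6 of 7 HFD libraries lay above the chow median (1.43 ± 0.26 on the log2 scale, ± SE, adjusted p = 5.23e-05, edgeR). In KO subcutaneous fat it moved from between 104 and 267 CPM to between 328 and 598 CPM with no overlap (1.56 ± 0.26). In epididymal fat it rose by 0.89 ± 0.20 in WT and 1.48 ± 0.21 in KO. Mevalonate kinase (Mvk) rose by 1.07 ± 0.16 and 0.47 ± 0.16 in WT and KO subcutaneous fat and by 0.54 ± 0.14 and 0.61 ± 0.15 in epididymal fat. Phosphomevalonate kinase (Pmvk) rose by 1.02 ± 0.18, 0.92 ± 0.18, 0.55 ± 0.16 and 0.95 ± 0.16 in the same order. Mevalonate decarboxylase (Mvd) rose by 1.40 ± 0.15, 1.27 ± 0.16, 1.31 ± 0.15 and 1.34 ± 0.16, and its HFD and chow libraries overlapped in none of the 4 comparisons.

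In the middle of the pathway, Fdps, farnesyl diphosphate synthase, rose by 1.23 ± 0.16 and 0.97 ± 0.16 in WT and KO subcutaneous fat and by 1.13 ± 0.22 and 0.77 ± 0.22 in epididymal fat. The isomerase gene Idi1 rose by 0.52 ± 0.18, 0.80 ± 0.18 and 0.49 ± 0.18 but not in KO epididymal fat (0.35 ± 0.19). Its WT subcutaneous call ended with the lymph node marker score as a covariate (0.26) and under the replicate block (0.48). It also ended in a fit on the compared groups alone (0.51) and without the libraries low in lymph node transcripts (0.27). The WT epididymal call of Idi1 ended without the libraries highest in liver transcripts (0.45) and without those that held epididymis transcripts (0.62). Squalene epoxidase (Sqle) rose by 0.92 ± 0.17, 0.84 ± 0.17 and 0.55 ± 0.19, and its difference in KO epididymal fat was 0.13 ± 0.20. Sqle was higher in WT chow epididymal libraries that held epididymis transcripts, as given below. In KO epididymal fat these markers had a median of 1630 CPM on chow and 567 CPM on HFD, so the diets were not balanced in them. Fdft1 went the other way in WT epididymal fat, from between 48.2 and 73.8 CPM on chow to between 30.1 and 41.2 CPM on HFD, and fell by 0.65 ± 0.10. Its gene overlaps Ctsb, a lysosomal protease gene whose mean went from 1550 to 5660 CPM, and whether the counting used strand is not given in the sources used here, so their reads may not be told apart.

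Lanosterol synthase (Lss) ran from 17.6 to 28.9 CPM in WT subcutaneous fat on chow (median 21.0) and from 33.6 to 78.4 CPM on HFD (median 61.2). The groups did not overlap, at a difference of 1.59 ± 0.14 (adjusted p = 5.95e-10, edgeR). It rose by 1.35 ± 0.15 in KO subcutaneous fat and by 1.17 ± 0.11 and 1.30 ± 0.11 in WT and KO epididymal fat, again with no overlap. Msmo1, the sterol C4-methyl oxidase, moved in WT epididymal fat from between 25.9 and 42.9 CPM (median 27.7) to between 47.2 and 79.5 CPM (median 60.0). Every HFD library lay above every chow library there (1.15 ± 0.10, adjusted p = 1.18e-10, edgeR). In WT subcutaneous fat Msmo1 moved from between 17.0 and 25.6 to between 30.5 and 45.3 CPM (1.07 ± 0.09, adjusted p = 2.18e-10, edgeR), and in KO it rose by 0.73 ± 0.09 in subcutaneous and 0.42 ± 0.11 in epididymal fat.

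The lanosterol demethylase gene Cyp51 rose by 1.20 ± 0.12 and 0.72 ± 0.12 in WT and KO subcutaneous fat and by 0.90 ± 0.13 and 0.41 ± 0.13 in epididymal fat. The KO epididymal call ended with RLE size factors (0.34), without the low-count filter (0.35) and in a fit on the compared groups alone (0.33). It also ended without KO HFD library 4 (0.35). Nsdhl, a sterol dehydrogenase, rose by 1.37 ± 0.16, 1.31 ± 0.17, 1.08 ± 0.14 and 1.19 ± 0.15 in the same order, Hsd17b7, the 3-ketosterol reductase, by 1.53 ± 0.15, 1.41 ± 0.15, 0.92 ± 0.10 and 0.81 ± 0.11, and Sc5d by 1.32 ± 0.20, 1.46 ± 0.20, 0.79 ± 0.15 and 1.26 ± 0.16. The isomerase Ebp rose by 0.40 ± 0.12 in WT subcutaneous fat and by 0.77 ± 0.13 and 0.54 ± 0.14 in epididymal fat, and was not called in KO subcutaneous fat (0.07 ± 0.12). Tm7sf2 rose in WT subcutaneous fat alone of the 4 comparisons (0.65 ± 0.21), and that call ended without the 2 subcutaneous libraries highest in liver transcripts, WT HFD 6 and KO HFD 2 (0.45). It overlaps Vps51, which averaged 16.1 CPM on chow and 13.0 CPM on HFD there and 11.2 to 19.4 CPM over the 12 groups, so that for Tm7sf2 too reads of the 2 genes may not be told apart. Acat2 rose in KO, by 0.41 ± 0.14 and 0.62 ± 0.13, and its differences in WT were -0.06 ± 0.14 and -0.15 ± 0.13.

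Dhcr7, which completes the cholesterol molecule, ran in WT epididymal fat from 7.44 to 16.0 CPM on chow (median 9.62) and from 38.9 to 61.7 CPM on HFD (median 43.2). The groups stood far apart (2.29 ± 0.17, adjusted p = 1.73e-12, edgeR). In KO epididymal fat it moved from between 9.40 and 14.7 to between 19.3 and 43.7 CPM (1.51 ± 0.17), and in subcutaneous fat it rose by 1.36 ± 0.18 in WT and 0.79 ± 0.18 in KO.

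Of the control genes, Insig1 rose in all 4 comparisons and its HFD and chow libraries overlapped in none of them. In WT epididymal fat it ran from 68.7 to 109 CPM on chow (median 92.9) and from 272 to 396 CPM on HFD (median 328), a rise of 1.95 ± 0.14. In KO epididymal fat it rose by 1.90 ± 0.15, and in WT and KO subcutaneous fat by 1.69 ± 0.18 and 1.43 ± 0.18. Srebf2 did not rise in any of the 4. Its difference was -0.38 ± 0.16 in WT subcutaneous and 0.18 ± 0.11 in WT epididymal fat. In KO it fell by 0.51 ± 0.16 in subcutaneous and 0.43 ± 0.12 in epididymal fat. The WT subcutaneous difference was not called by edgeR, while DESeq2 called it (-0.38). It was also called without the low-count filter (-0.40), under the replicate block (-0.43) and without the libraries highest in liver transcripts (-0.62). RLE size factors, the lymph node score, the compared groups alone and leaving out libraries low in lymph node transcripts did not call it. Scap was called in 0 of the 20 comparisons by edgeR, with 1 at an unadjusted p under 0.05, and DESeq2 called it in 1 (KO HFD between depots, 0.29). Insig2 rose by 0.50 ± 0.09 and 0.80 ± 0.09 in WT and KO subcutaneous fat. In WT epididymal fat it fell by 0.40 ± 0.12 with no overlap, and in KO epididymal fat it was not called (0.28 ± 0.12).

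**Figure D2:**
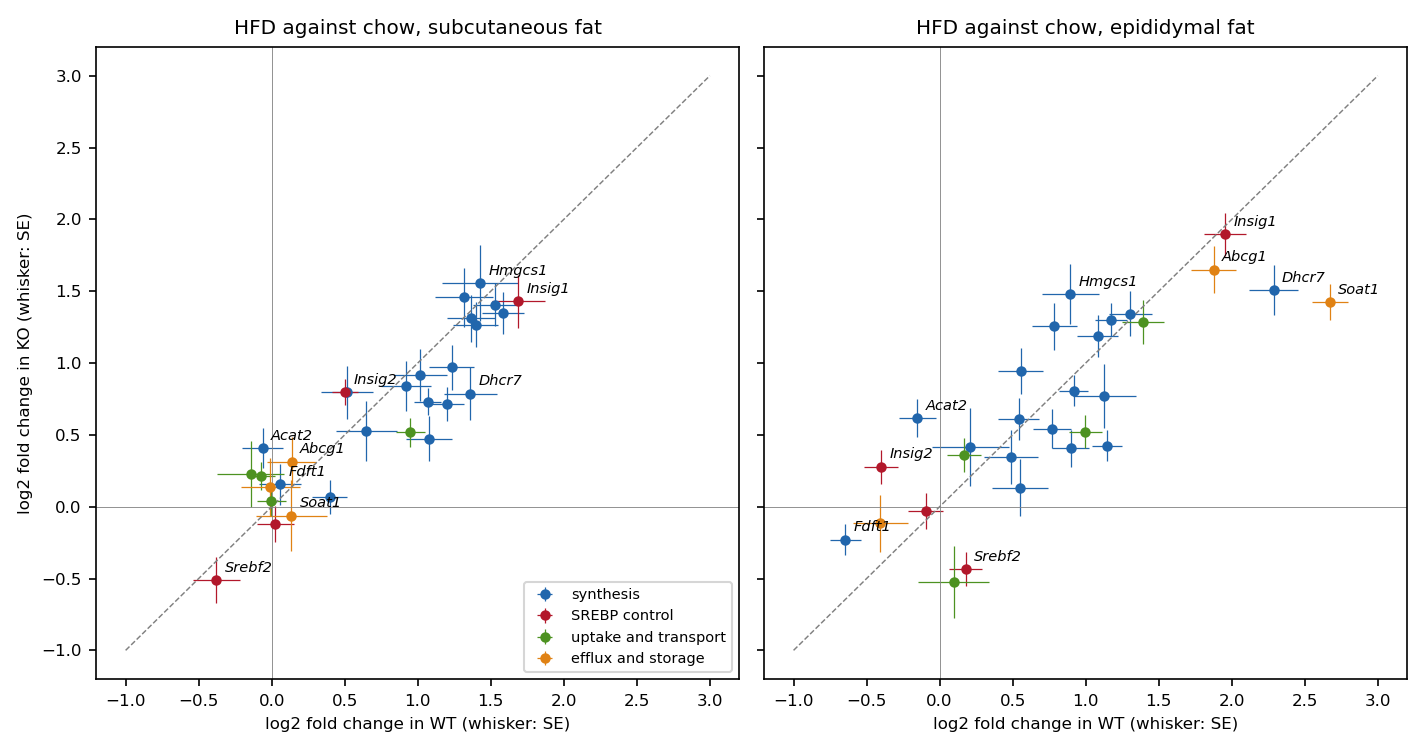
Each point is a gene, with its log2 fold change of HFD over chow in WT (horizontal) and in KO mice (vertical), whiskers for the SE, and a dashed line of equal values. In epididymal fat Soat1 (2.67 in WT, 1.42 in KO) and Dhcr7 (2.29 and 1.51) lie below the line and Acat2 (-0.15 and 0.62) above it.

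The storage and transport genes answered HFD mainly in epididymal fat. In WT epididymal fat Soat1, the sterol O-acyltransferase, ran from 19.9 to 43.1 CPM on chow (median 27.1) and from 153 to 217 CPM on HFD (median 171). The 2 ranges lay far apart (2.67 ± 0.12, adjusted p = 4.3e-17, edgeR). Abcg1, a sterol exporter, moved from between 36.4 and 65.7 CPM (median 43.0) to between 144 and 174 CPM (median 159), without overlap (1.88 ± 0.16, adjusted p = 1.76e-11, edgeR). Npc1 and Npc2, which pass cholesterol out of the lysosome, rose by 1.00 ± 0.11 and 1.39 ± 0.15. Npc1 overlaps Rmc1, whose mean went from 32.3 to 45.0 CPM. In KO epididymal fat Soat1 rose by 1.42 ± 0.12, Abcg1 by 1.65 ± 0.16, Npc1 by 0.52 ± 0.12, Npc2 by 1.28 ± 0.15 and Mylip, an LXR-driven ubiquitin ligase that degrades lipoprotein receptors, by 0.36 ± 0.12. The call of Mylip ended with RLE size factors (0.30), without the low-count filter (0.31) and in a fit on the compared groups alone (0.30). Abca1 was called in none of the 4 comparisons, with -0.41 ± 0.19 in WT epididymal fat, which DESeq2 called (-0.45). In subcutaneous fat Npc2 rose by 0.95 ± 0.10 in WT and 0.52 ± 0.10 in KO, while Soat1 (0.13 ± 0.24 and -0.06 ± 0.24) and Abcg1 (0.14 ± 0.17 and 0.31 ± 0.17) were not called.

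The difference between depots in the HFD response of WT mice was tested as an interaction. It was positive, larger in epididymal fat, for 4 of the 29 genes and negative for 5, against 16.1% and 17.3% of all genes. The positive ones were Dhcr7 (0.87 ± 0.25), Npc1 (0.94 ± 0.14), Abcg1 (1.69 ± 0.23) and Soat1 (2.48 ± 0.28). The negative ones were Mvk (-0.59 ± 0.20), Fdft1 (-0.77 ± 0.18), Lss (-0.47 ± 0.18), Hsd17b7 (-0.67 ± 0.18) and Insig2 (-0.95 ± 0.13). Without the epididymal libraries of this experiment that held epididymis transcripts (over 100 CPM of the marker list), a fit chosen after seeing the data, the calls of Mvk (-0.60), Lss (-0.28) and Hsd17b7 (-0.42) ended and the other 6 stayed. Without the 4 subcutaneous libraries low in lymph node transcripts (WT chow 1 and WT HFD 1, 2 and 4), Lss (-0.28) and Hsd17b7 (-0.33) ended as well. Srebf2 (0.49) and Npc2 (0.39) were not called by edgeR, while DESeq2 called both (0.52 and 0.41).

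Macrophage markers rose on HFD in epididymal fat too. The 12 markers summed to 1006 to 1652 CPM in WT epididymal fat on chow (median 1215) and 6538 to 9023 CPM on HFD (median 6841). In KO epididymal fat they summed to 739.9 to 1239 CPM on chow and 1219 to 2988 CPM on HFD, and in WT subcutaneous fat to 554 to 2405 and 961 to 2083 CPM. The adipocyte markers went from 16380 to 27510 CPM in WT epididymal fat on chow to 10890 to 17560 CPM on HFD. With the macrophage score as a covariate, a fit chosen after seeing the data, 3 of the 29 genes were called on HFD in WT epididymal fat in place of 22: Soat1 (1.56), Cyp51 (1.78) and Insig1 (2.28). Abcg1 (-0.043), Npc1 (-0.46), Npc2 (-0.027), Mvk (-0.80), Pmvk (-0.16) and Ebp (-0.46) changed sign. Other genes that were no longer called had a difference as large or larger than before: Hmgcs1 (1.67), Idi1 (1.50), Fdps (1.84), Sqle (1.66), Lss (1.36), Nsdhl (1.57) and Hsd17b7 (1.06), and Msmo1 was at 1.12. Those of Mvd (0.68), Sc5d (0.36) and Dhcr7 (0.50) were smaller. In KO 6 were called in place of 21: Hmgcs1, Lss, Nsdhl, Hsd17b7, Insig1 (2.06) and Soat1 (0.87). The score itself went from 5.79 ± 0.25 to 8.54 ± 0.15 (mean log2(CPM + 1) ± SD, n = 8 each) in WT, so diet and score overlap in no library and can hardly be told apart.

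**Figure D3:**
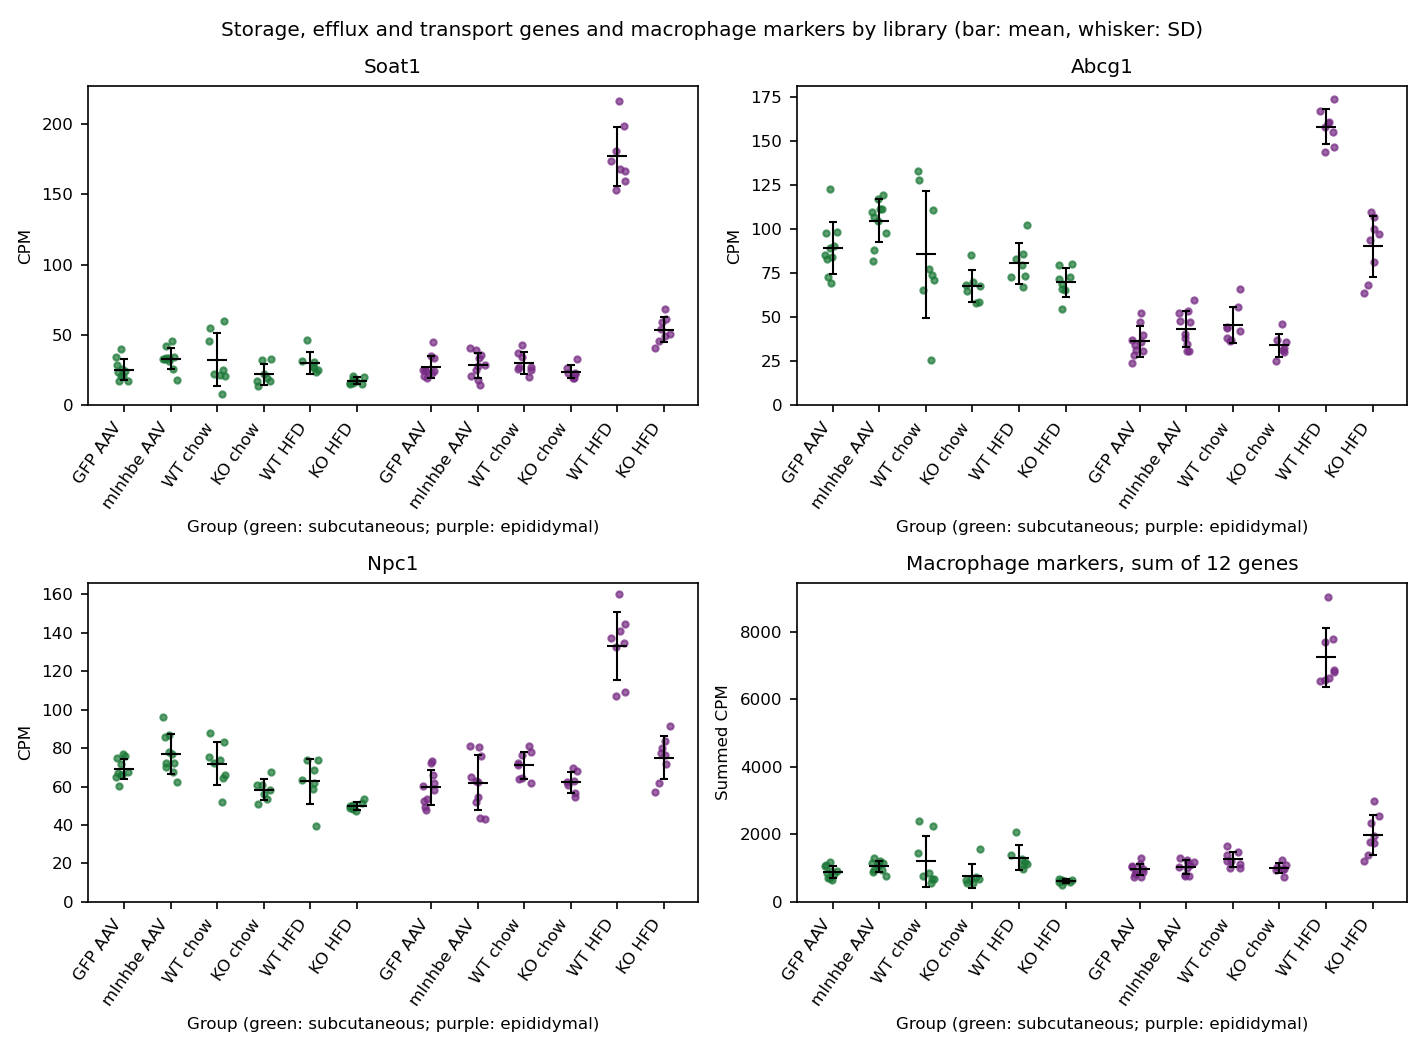
Points are libraries, in CPM (vertical) by group (horizontal; green subcutaneous, purple epididymal), for Soat1, Abcg1, Npc1 and the summed macrophage markers, with a tick for the mean and whiskers for the SD. In all 4 panels the WT HFD epididymal libraries are the highest group, with Soat1 at 153 to 217 CPM against 40.7 to 68.6 CPM in KO HFD.

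KO was compared with WT on HFD. In epididymal fat 7 of the 29 genes were higher and 6 lower in KO, against 17% and 20.2% of all genes, a share near the background. Soat1 ran from 40.7 to 68.6 CPM in KO (median 52.7) and from 153 to 217 CPM in WT. The groups did not overlap (-1.54 ± 0.12, adjusted p = 3.78e-11, edgeR). Npc1 was at 57.4 to 91.4 CPM in KO and 107 to 160.2 CPM in WT (-0.64 ± 0.11), and Abcg1 at 63.5 to 109.8 and 144 to 174 CPM (-0.62 ± 0.15), both without overlap. The other 3 lower genes were Msmo1 (-0.54 ± 0.10), Dhcr7 (-0.51 ± 0.16) and Srebf2 (-0.54 ± 0.12). With the macrophage score as a covariate Soat1 stayed lower (-0.86), Dhcr7 (0.59), Npc1 (0.25) and Abcg1 (0.55) changed sign, and 3 genes were called: Soat1 and Pmvk (1.30) of the 13, and Mvk (1.01), which had not been. Fdft1 (0.77), Acat2 (0.80), Insig2 (0.73), Msmo1 (-0.52) and Srebf2 (-0.57) were no longer called, at differences close to those without the score. The marker sums of KO (1219 to 2988 CPM) and WT (6538 to 9023 CPM) did not overlap on HFD, so score and genotype can hardly be told apart in this fit.

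Acat2 was higher in KO epididymal fat on HFD, at 84.0 to 153 CPM (median 109) against 60.5 to 74.2 CPM in WT (median 66.7). No KO library overlapped the WT ones (0.90 ± 0.13, adjusted p = 1.5e-06, edgeR). The 7 adipocyte markers were higher in KO too, at 19420 to 24690 CPM against 10890 to 17560 CPM in WT with no overlap, and their part in these differences was not tested. Fdft1 was at 41.4 to 64.8 CPM in KO and 30.1 to 41.2 CPM in WT (0.68 ± 0.10, adjusted p = 4.77e-06, edgeR), while its neighbour Ctsb averaged 2860 and 5660 CPM. The other 5 higher genes were Pmvk (0.87 ± 0.15), Lss (0.36 ± 0.11), Tm7sf2 (0.79 ± 0.26), Nsdhl (0.41 ± 0.14) and Insig2 (0.72 ± 0.12). Without KO HFD library 4, which held the highest Pmvk (73.5 CPM) and the lowest Hmgcs1 (112 CPM) of its group, the calls for Tm7sf2 (0.70) and Nsdhl (0.31) ended. Without the epididymis-transcript libraries those of Lss (0.27), Nsdhl (0.47) and Dhcr7 (-0.25) ended. Insig1 (0.32 ± 0.14) and Abca1 (0.08 ± 0.19) were not called. DESeq2, RLE size factors (0.32 in each) and a fit on the compared groups alone (0.34) did call Insig1. Sc5d (0.37) was called by DESeq2 (0.39), with RLE size factors (0.39) and with the replicate block (0.39). Cyp51 (-0.29) was called with the replicate block (-0.29) and on the compared groups alone (-0.26). Stard4 was at -1.05 without the epididymis-transcript libraries, in place of -0.43.

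The genotype by diet interaction in epididymal fat was positive for 2 genes and negative for 5, against 7.83% and 8.7% of all genes. The HFD response was lower in KO for Msmo1 (-0.72 ± 0.15), Dhcr7 (-0.78 ± 0.24), Srebf2 (-0.61 ± 0.17), Npc1 (-0.47 ± 0.16) and Soat1 (-1.25 ± 0.17), and higher in KO for Acat2 (0.77 ± 0.18) and Insig2 (0.68 ± 0.17). Soat1 had the smallest adjusted p of the 29 (6.66e-06, edgeR). Insig1 (-0.06 ± 0.20), Hmgcs1 (0.59 ± 0.28) and Abca1 (0.29 ± 0.27) were not called.

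In subcutaneous fat on HFD 2 of the 29 genes were higher in KO and 3 lower, against 7.32% and 11.6% of all genes. Insig2 was at 79.8 to 94.9 CPM in KO and 54.6 to 76.3 CPM in WT, with no overlap (0.51 ± 0.09, adjusted p = 0.000166, edgeR), and Acat2 was 0.43 ± 0.14 higher. Cyp51 was at 29.3 to 37.6 CPM in KO and 29.0 to 64.4 CPM in WT (-0.45 ± 0.11, adjusted p = 0.00551, edgeR), with all 8 KO libraries below the WT median. Dhcr7 (-0.63 ± 0.18) and Npc2 (-0.31 ± 0.10) were also lower. The call of Acat2 ended without the libraries highest in liver transcripts (0.32), that of Cyp51 without those low in lymph node transcripts (-0.26) and that of Npc2 with the replicate block (-0.29). Insig1 (0.14 ± 0.18), Srebf2 (-0.16 ± 0.16) and Abca1 (0.25 ± 0.20) were not called. The 11 lymph node markers summed to 333 to 819 CPM in KO and 10.2 to 892 CPM in WT, and with their score as a covariate 8 genes were called. The macrophage markers summed to 508 to 676 CPM in KO and 961 to 2083 CPM in WT, and their part in these differences was not tested. The genotype by diet interaction was called for 0 genes as positive and 0 as negative by edgeR, against 0.387% and 1.75% of all genes. At an unadjusted p under 0.05 there were 8, and DESeq2 called 1.

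The KO effect on HFD was set between depots as an interaction too. It was positive for 1 gene and negative for 2, against 7.76% and 6.87% of all genes. Pmvk was the positive one (0.67 ± 0.23), and Npc1 (-0.47 ± 0.14) and Soat1 (-0.92 ± 0.28) were the negative ones, with KO lower by more in epididymal fat. All 3 calls ended without the epididymis-transcript libraries (Pmvk 0.73, Npc1 -0.35 and Soat1 -0.86) and without the 4 libraries highest in liver transcripts, which include WT HFD epididymal 4 and 5 (0.64, -0.41 and -0.83). In the former fit Msmo1 (-0.49) and Stard4 (-1.24) were called, and in the latter Srebf2 (-0.61). Without KO HFD epididymal library 4 the call of Pmvk ended (0.59).

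On chow the KO differed from WT in 1 gene of the set. In subcutaneous fat 0 were called as higher and 0 as lower by edgeR, against 0.134% and 0.12% of all genes, with differences from -0.43 to 0.51. At an unadjusted p under 0.05 there were 6, and DESeq2 called 0. In epididymal fat 0 were higher and 1 lower, against 0.173% and 0.485%. The gene was Hmgcs1, at 105 to 161 CPM in KO (median 148) and 176 to 373 CPM in WT (median 266). All 7 KO libraries lay below all 8 WT libraries (-0.88 ± 0.20, adjusted p = 0.031, edgeR). The call ended with the epididymis score as a covariate (-0.79) and without the epididymis-transcript libraries (-0.95), where the difference was as large and 1 KO chow library was left. The 10 epididymis markers summed to 6.63 to 4494 CPM in KO (median 1630) and 0.557 to 5017 CPM in WT (median 18.7) on chow. The genotypes were thus not balanced in these transcripts. In subcutaneous fat Hmgcs1 differed by -0.38 ± 0.26, which was not called. Insig1 (0.37 ± 0.14), Srebf2 (0.07 ± 0.12) and Abca1 (-0.21 ± 0.20) were not called in epididymal fat.

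**Figure D4:**
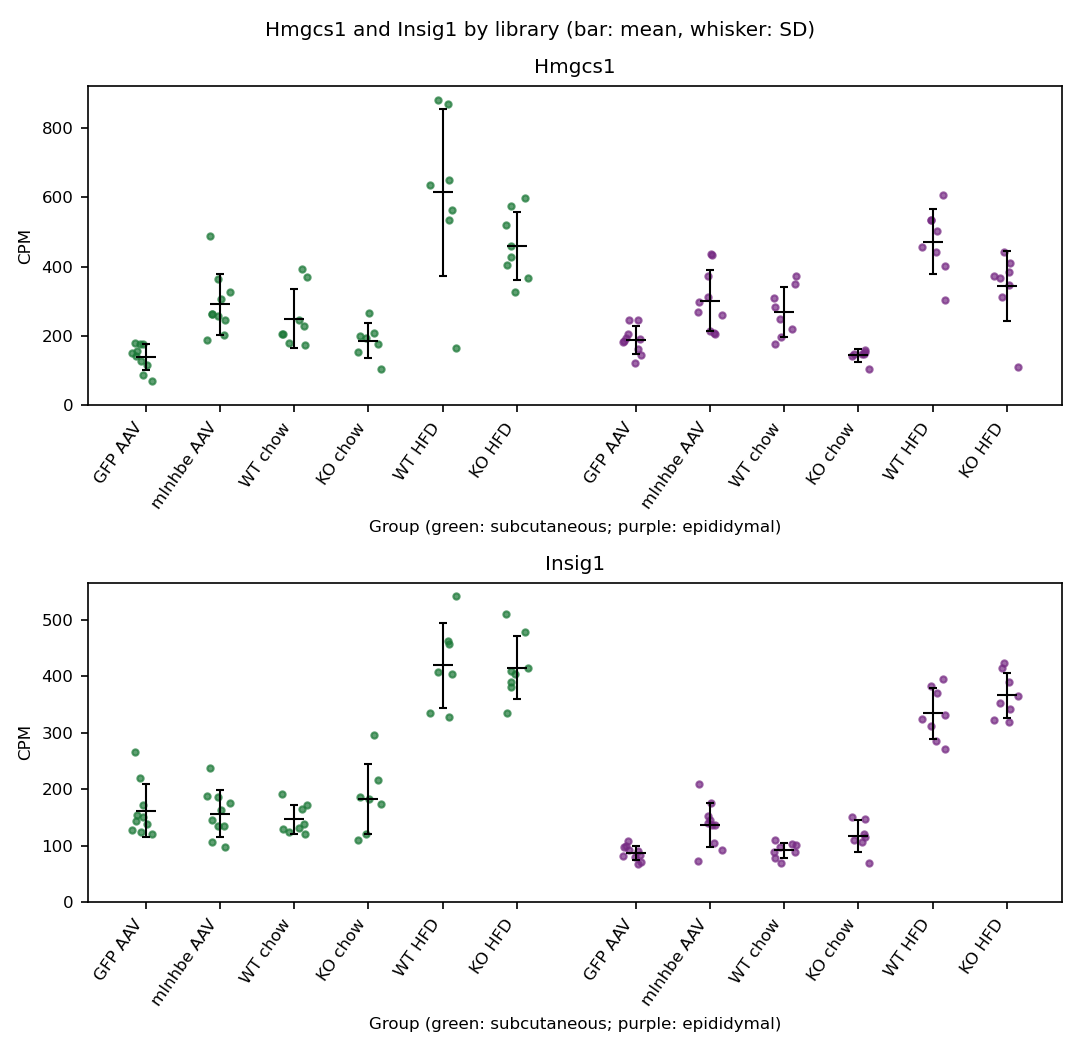
Points are libraries, in CPM (vertical) by group (horizontal; green subcutaneous, purple epididymal), for Hmgcs1 and Insig1, with a tick for the mean and whiskers for the SD. Hmgcs1 is at 189.8 to 488 CPM with mInhbe against 71.0 to 180.2 CPM with GFP in subcutaneous fat, and Insig1 separates HFD from chow in both depots and genotypes.

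Mice with the mInhbe vector were compared with GFP mice on chow. In subcutaneous fat 4 of the 29 genes rose and 4 fell, against 15.8% and 11.4% of all genes, a share near the background. Hmgcs1 ran from 71.0 to 180.2 CPM with GFP (median 146) and from 189.8 to 488 CPM with mInhbe (median 264). All 10 mInhbe libraries lay above all 10 GFP libraries (0.98 ± 0.17, adjusted p = 0.000829, edgeR). Fdft1 moved from between 45.4 and 61.2 CPM (median 54.0) to between 28.3 and 51.6 CPM (median 35.0) and fell by 0.67 ± 0.11 (adjusted p = 0.00048, edgeR), while Ctsb averaged 1820 CPM with GFP and 1420 CPM with mInhbe. Npc2 moved from between 435 and 596 CPM to between 357 and 459.8 CPM and fell by 0.41 ± 0.07 (adjusted p = 0.00101, edgeR). Abca1 moved from between 152 and 338 CPM to between 302 and 453 CPM and rose by 0.37 ± 0.10 (adjusted p = 0.0114, edgeR). In these 3 genes the groups overlapped.

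Idi1 (0.48 ± 0.18) and Stard4, a soluble sterol carrier (0.41 ± 0.14), also rose with mInhbe in subcutaneous fat, and Fdps (-0.33 ± 0.12) and Ebp (-0.21 ± 0.08) fell. These 4 calls ended without GFP library 2 (0.44, 0.35, -0.30 and -0.15), a fit chosen after seeing the data. Insig1 (-0.14 ± 0.16) and Srebf2 (0.08 ± 0.15) were not called. The median of the 18 synthesis genes was -0.13, against 0.00 over all genes, with 6 above 0. The lymph node markers summed to 703 to 1466 CPM with GFP (median 1057) and 977 to 1848 CPM with mInhbe (median 1304). With their score as a covariate Hmgcs1 (1.05) and Fdft1 (-0.41) were called and the other 6 were not.

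In epididymal fat 2 of the 29 genes rose with mInhbe and 0 fell, against 0.761% and 0.404% of all genes. Hmgcs1 ran from 121 to 247 CPM with GFP (median 188) and from 206 to 437 CPM with mInhbe (median 285), with 10 of 10 mInhbe libraries above the GFP median (0.67 ± 0.16, adjusted p = 0.0389, edgeR). Insig1 ran from 67.5 to 108 CPM with GFP (median 86.4) and from 72.1 to 209 CPM with mInhbe (median 139), with 9 of 10 above the GFP median (0.65 ± 0.15, adjusted p = 0.0308, edgeR). In both genes the ranges overlapped. Both calls ended with the replicate number as a block (Hmgcs1 0.66, Insig1 0.62). Srebf2 (0.24 ± 0.14) and Abca1 (-0.27 ± 0.20) were not called. Of the 18 synthesis genes 15 had a difference above 0, with a median of 0.22 against 0.00 over all genes. The interaction of mInhbe with depot was positive for 3 genes and negative for 0, against 4.09% and 9.41%. These were Fdft1 (0.59 ± 0.16), Ebp (0.47 ± 0.12) and Insig1 (0.78 ± 0.23), and Hmgcs1 was not among them. Abca1 was not called by edgeR (-0.65), while DESeq2 called it (-0.63).

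The depots were compared within 5 groups, as epididymal over subcutaneous fat. With GFP 12 of the 29 genes were higher and 7 lower in epididymal fat, against 35.8% and 28.7% of all genes. In WT chow 9 were higher and 3 lower, against 24.5% and 18.7%, and in KO chow 11 and 3, against 21% and 15%. In WT HFD 9 were higher and 4 lower, against 21.8% and 18.9%, and in KO HFD 9 and 1, against 22.5% and 19.3%. Cyp51 was higher in epididymal fat in all 5, by 0.98 ± 0.11 with GFP, 0.68 ± 0.13 in WT chow, 0.86 ± 0.13 in KO chow, 0.32 ± 0.13 in WT HFD and 0.47 ± 0.12 in KO HFD. Mylip was lower in all 5, at -0.73 ± 0.11, -0.86 ± 0.11, -0.56 ± 0.12, -0.68 ± 0.11 and -0.48 ± 0.11 in the same order. No other gene of the 29 was called in the same direction in all 5. Of all genes, at most 21% could be called higher and 15% lower in all 5, the shares in KO chow. The WT HFD call of Cyp51 ended without the libraries highest in liver transcripts (0.16), with the replicate block (0.30) and without KO HFD epididymal library 4 (0.29).

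Insig1 was at 67.5 to 108 CPM in epididymal and 121 to 266 CPM in subcutaneous fat with GFP, with no overlap (-0.97 ± 0.16). Abcg1 was at 24.3 to 52.4 and 69.5 to 123 CPM, again with no overlap (-1.37 ± 0.13). In WT mice on HFD the order of Abcg1 turned, with 144 to 174 CPM in epididymal and 67.0 to 102 CPM in subcutaneous fat (0.87 ± 0.16). Soat1 was at 153 to 217 and 23.5 to 46.4 CPM there (2.45 ± 0.21) and at 40.7 to 68.6 and 15.1 to 21.1 CPM in KO HFD (1.52 ± 0.20), and was not called between depots with GFP or on chow.

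The other genes higher in epididymal fat with GFP were Idi1 (0.59 ± 0.17), Fdps (1.14 ± 0.17), Fdft1 (0.51 ± 0.11), Sqle (1.52 ± 0.15), Tm7sf2 (1.58 ± 0.24), Msmo1 (0.95 ± 0.12), Hsd17b7 (0.39 ± 0.14), Sc5d (0.29 ± 0.13), Insig2 (0.50 ± 0.10), Stard4 (0.84 ± 0.17) and Npc2 (0.39 ± 0.15), and the other lower ones Pmvk (-0.39 ± 0.15), Dhcr7 (-0.88 ± 0.15), Srebf2 (-0.51 ± 0.15) and Npc1 (-0.29 ± 0.10). In WT chow the other higher genes were Mvd (0.40 ± 0.15), Fdft1 (0.61 ± 0.12), Sqle (0.81 ± 0.19), Lss (0.45 ± 0.12), Tm7sf2 (0.82 ± 0.25), Msmo1 (0.54 ± 0.10), Hsd17b7 (0.55 ± 0.13) and Insig2 (0.68 ± 0.09), and the lower ones besides Mylip were Insig1 (-0.64 ± 0.16) and Abcg1 (-0.83 ± 0.16). In KO chow the higher ones were Mvd (0.59 ± 0.16), Fdps (0.90 ± 0.21), Fdft1 (0.74 ± 0.13), Sqle (1.14 ± 0.21), Tm7sf2 (0.89 ± 0.26), Msmo1 (0.57 ± 0.11), Nsdhl (0.51 ± 0.16), Hsd17b7 (0.50 ± 0.14), Insig2 (0.52 ± 0.10) and Stard4 (0.78 ± 0.26), and the lower ones Insig1 (-0.66 ± 0.17) and Abcg1 (-0.98 ± 0.17). In WT HFD the higher ones were Msmo1 (0.55 ± 0.10), Ebp (0.47 ± 0.12), Dhcr7 (0.69 ± 0.18), Srebf2 (0.38 ± 0.15), Npc1 (0.98 ± 0.10) and Npc2 (0.54 ± 0.12), and the lower ones Pmvk (-0.62 ± 0.16), Insig1 (-0.43 ± 0.16) and Insig2 (-0.27 ± 0.10). In KO HFD the higher ones were Mvd (0.58 ± 0.15), Fdps (0.61 ± 0.19), Tm7sf2 (0.69 ± 0.25), Ebp (0.54 ± 0.12), Dhcr7 (0.80 ± 0.17), Npc1 (0.51 ± 0.10) and Npc2 (0.84 ± 0.11).

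Epididymis markers moved with several of these depot differences. With GFP they summed to 3.21 to 12120 CPM in epididymal fat and to at most 0.278 CPM in subcutaneous fat. GFP epididymal library 7 held 3.21 CPM and the other 9 at least 3110 CPM. That library was the lowest of its group in Tm7sf2 (2.10 CPM), Sqle (15.9 CPM), Fdps (18.8 CPM) and Cyp51 (28.4 CPM). In WT chow epididymal fat, libraries 3, 5 and 8 held over 100 CPM of the markers. Sqle was at 24.6, 35.6 and 35.0 CPM in these and at 11.5 to 18.3 CPM in the other 5. Fdps was at 37.2, 58.9 and 51.7 CPM against 17.2 to 21.9 CPM, and Tm7sf2 at 6.95, 11.6 and 9.90 CPM against 2.22 to 3.84 CPM. For these 3 genes the libraries with and without the markers did not overlap.

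A fit without the epididymal libraries of the KO experiment that held over 100 CPM of the epididymis markers was chosen after seeing the data. In it the WT chow depot calls of Sqle (0.34), Tm7sf2 (0.071) and Mvd (0.22) ended, and Cyp51 (0.52) and Msmo1 (0.43) stayed. On HFD in WT epididymal fat Fdps was at 1.67 in place of 1.13 and Sqle at 1.00 in place of 0.55. The genes called there were not all the same as with all libraries. Idi1 (0.62) was no longer called, and Tm7sf2 (0.77 in place of 0.21) was. KO chow keeps 1 epididymal library in that fit, assumed to vary like the other groups, and 8 genes were called on HFD in KO epididymal fat in place of 21. Of the 13 that ended, Hmgcs1 (1.30), Nsdhl (1.20), Hsd17b7 (0.77), Pmvk (0.89) and Mvk (0.87) were about as large as with all libraries or larger, and Mylip (0.012) was near 0. All 14 depot calls in KO chow ended there, with Fdps at 0.080 in place of 0.90, Tm7sf2 at 0.082 in place of 0.89 and Abcg1 at -1.04 in place of -0.98. In WT HFD the depot calls of Pmvk (-0.47), Insig1 (-0.32), Insig2 (-0.18) and Srebf2 (0.35) ended. Of the 7 genotype by diet interactions in epididymal fat, that of Soat1 stayed called (-1.21). The other 6 were not called there, at Msmo1 -0.76, Acat2 0.87, Insig2 0.67, Srebf2 -0.60, Npc1 -0.40 and Dhcr7 -0.57, of which the first 5 were close to their values with all libraries.

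A further 22 genes of the pathway, outside the 29, were counted the same way. On HFD 6 rose and 9 fell in WT epididymal fat, against 28.9% and 25.2% of all genes, with the largest rises in Nceh1 (3.10 ± 0.20) and Lipa (3.09 ± 0.14), which encode cholesteryl ester hydrolases. In KO epididymal fat 9 rose and 1 fell, against 24.7% and 13.9%. In subcutaneous fat 3 rose and 2 fell in WT, against 22.6% and 21.5%, and 3 and 1 in KO, against 11.7% and 9.05%. In KO against WT on HFD 7 were higher and 3 lower in epididymal fat, against 17% and 20.2%, with Nceh1 at -1.88 ± 0.19, Lipa at -1.58 ± 0.14 and the mitochondrial thiolase gene Acat1 at 0.80 ± 0.09, and 1 and 2 in subcutaneous fat, against 7.32% and 11.6%. With mInhbe 5 rose and 3 fell in subcutaneous fat, against 15.8% and 11.4%. In epididymal fat with mInhbe 0 rose and 0 fell by edgeR, with 1 at an unadjusted p under 0.05. On chow the KO changed 0 in subcutaneous and 0 in epididymal fat by edgeR, with 0 and 1 at an unadjusted p under 0.05. Vldlr, a lipoprotein receptor gene, rose on HFD by 1.37 ± 0.19 and 0.92 ± 0.19 in WT and KO subcutaneous fat and by 0.73 ± 0.10 and 1.04 ± 0.11 in epididymal fat.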

How the data were processed

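RNA of 101 libraries was sequenced by the authors with the KAPA mRNA HyperPrep kit from 500 ng of RNA, 14 PCR cycles and 76-cycle paired reads, per the labels' protocols. The deposited tables hold estimated counts per Entrez gene, 1 for each experiment's libraries, and 2.94% of the values are not whole (tolerance 1e-06). The build mm10 comes from the submitters' processing notes, while which aligner and counter were run, and whether with strand, is not given in the sources used here. Of 24475 genes 24375 took a symbol from RefSeq GRCm38.p6, and exon lengths came from the reference annotation. Groups follow the labels.

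Estimated counts were rounded to whole numbers. Genes passed filterByExpr at a count of 10 and a total of 15, TMM gave the library scaling, and the test was that of edgeR 4.0.16 (robust quasi-likelihood) on limma 3.58.1 in R 4.3.3, with Benjamini-Hochberg adjusted p under 0.05 over all genes tested (13990 to 15480). SE is the fold change divided by the root of F. P-values rest on the spread between libraries within groups, as an estimate that all groups in a fit share. A fit took all groups of a depot in an experiment, or of both depots for depot comparisons and interactions with depot. None of 383 library comparisons within groups was closer than counting noise (lowest dispersion index 6.19). Library totals ran from 12970509 to 20170746 counts. Alternatives were RLE size factors, no low-count filter, DESeq2 1.42.0, the replicate number as a block, tissue scores (mean log2(CPM + 1) of the marker list) as covariates, fits on the compared groups alone, and libraries left out. All fits with libraries left out, and those with the macrophage score, were not planned and were chosen after seeing the data. On simulated counts for mInhbe against GFP in subcutaneous fat (13990 genes), 56.7%, 89.6% and 100% of genes changed 1.5, 2 and 4 times were called, and for KO against WT on HFD in epididymal fat (15042 genes) 35.8%, 67.2% and 93.9%. For the interaction of mInhbe with depot (15416 genes) these were 38.8%, 58.2% and 89.4%. For that of KO on HFD with depot (15480 genes) they were 19.4%, 59.7% and 87.9%, so an interaction that was not called may have been missed.

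The members, lists and tests were chosen with earlier results of these data known. Named in each comparison were the called members, with library values for up to 4 of the smallest p. Srebf2, Insig1 and Abca1 are also given in part of the comparisons in which they were not called. Tables were written with Python 3.11.15, numpy 2.4.6 and pandas 2.3.3, and figures with matplotlib 3.10.9.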

Additional observations from a re-analysis of the deposited data

Results flagged for a closer look

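A library value is listed where it lay far from the others of its group by Dixon's criterion. This held for 36 of the 348 sets of 1 gene in 1 group (10.3%), where chance gives about 5% for both ends together. Sets that share a library are not independent. KO HFD epididymal library 4 stood apart in Hmgcs1 (112 CPM), Hsd17b7 (12.6 CPM), Idi1 (19.2 CPM), Insig2 (61.8 CPM) and Sc5d (97.1 CPM) as the lowest of its group and in Pmvk (73.5 CPM) as the highest of its group. GFP epididymal library 7 stood apart in Cyp51 (28.4 CPM), Fdps (18.8 CPM), Sqle (15.9 CPM) and Tm7sf2 (2.10 CPM) as the lowest of its group. WT HFD subcutaneous library 6 stood apart in Hmgcs1 (167 CPM), Idi1 (17.7 CPM) and Sc5d (61.7 CPM) as the lowest of its group and in Scap (77.2 CPM) as the highest of its group. GFP subcutaneous library 2 stood apart in Abca1 (152 CPM) as the lowest of its group and in Scap (129.7 CPM) and Srebf2 (153 CPM) as the highest of its group. WT chow subcutaneous library 1 stood apart in Abcg1 (25.7 CPM), Srebf2 (35.0 CPM) and Stard4 (5.10 CPM) as the lowest of its group. KO chow subcutaneous library 5 stood apart in Lss (20.9 CPM), Sc5d (54.6 CPM) and Sqle (6.66 CPM) as the lowest of its group. WT HFD epididymal library 3 stood apart in Abca1 (236 CPM) and Insig2 (44.8 CPM) as the lowest of its group. WT chow epididymal library 3 stood apart in Dhcr7 (16.0 CPM) as the highest of its group. KO chow epididymal library 3 stood apart in Hmgcs1 (105 CPM) as the lowest of its group. GFP epididymal library 5 stood apart in Idi1 (25.0 CPM) as the lowest of its group. KO chow epididymal library 7 stood apart in Insig2 (67.3 CPM) as the lowest of its group. WT HFD subcutaneous library 5 stood apart in Msmo1 (30.5 CPM) as the lowest of its group. WT chow epididymal library 5 stood apart in Msmo1 (42.9 CPM) as the highest of its group. KO chow epididymal library 6 stood apart in Mylip (36.6 CPM) as the lowest of its group. WT HFD subcutaneous library 3 stood apart in Npc1 (39.6 CPM) as the lowest of its group. KO chow epididymal library 5 stood apart in Nsdhl (78.7 CPM) as the highest of its group. WT HFD epididymal library 8 stood apart in Stard4 (5.82 CPM) as the lowest of its group. KO chow subcutaneous library 4 stood apart in Tm7sf2 (1.89 CPM) as the lowest of its group. WT HFD subcutaneous library 6 held the most liver marker transcript of its group (228 CPM), and WT chow subcutaneous library 1 the least lymph node marker transcript (15.9 CPM against a median of 938). Their part in these values was not tested.

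The response to HFD differed between KO and WT epididymal fat by the tested interaction (log2, KO over WT, edgeR) in Msmo1 (-0.72), Dhcr7 (-0.78), Acat2 (0.77), Insig2 (0.68), Srebf2 (-0.61), Npc1 (-0.47) and Soat1 (-1.25). The response to mInhbe differed between depots (epididymal over subcutaneous) in Fdft1 (0.59), Ebp (0.47) and Insig1 (0.78). The response of WT mice to HFD differed between depots in Mvk (-0.59), Fdft1 (-0.77), Lss (-0.47), Hsd17b7 (-0.67), Dhcr7 (0.87), Insig2 (-0.95), Npc1 (0.94), Abcg1 (1.69) and Soat1 (2.48). The KO effect on HFD differed between depots in Pmvk (0.67), Npc1 (-0.47) and Soat1 (-0.92).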

How the results depend on the processing

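Of 200 calls of the 29 genes over the 20 comparisons, 99 stayed called in the same direction under every alternative run, 101 were lost under at least 1, and 12 of these changed sign, all with the macrophage score as a covariate. RLE size factors, the missing low-count filter and DESeq2 lost 4, 9 and 1 calls.

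For mInhbe in subcutaneous fat 8 genes were called, and 5 without the low-count filter, 5 with the replicate block, 2 with the lymph node score and 4 without GFP library 2. KO against WT on HFD in subcutaneous fat called 5, and 8 with the lymph node score. The subcutaneous genotype by diet interaction called 0, against 1 with DESeq2 (Npc2) and 1 without the libraries with liver transcripts (Cyp51). KO on chow in epididymal fat called 1, against 0 with the epididymis score, 0 without the libraries with epididymis transcripts (Hmgcs1 -0.95) and 2 without KO HFD library 4 (Hmgcs1 and Pmvk).

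With the macrophage score, 3 genes were called in place of 13 for KO on HFD (Mvk, 1 of the 3, was not among the 13), 3 in place of 22 for HFD in WT and 6 in place of 21 for HFD in KO, all in epididymal fat. Those that changed sign were Dhcr7 (0.59), Npc1 (0.25) and Abcg1 (0.55) for KO on HFD; Mvk (-0.80), Pmvk (-0.16), Ebp (-0.46), Npc1 (-0.46), Npc2 (-0.027) and Abcg1 (-0.043) for HFD in WT; and Mvk (-0.063), Ebp (-0.075) and Npc1 (-0.20) for HFD in KO. The cause was not tested. Without the libraries with epididymis transcripts, which leaves 1 KO chow epididymal library, HFD in KO called 8, the epididymal genotype by diet interaction 1 and the depots in KO chow 0, in place of 21, 7 and 14. The interaction of KO on HFD with depot called 3, against 1 without the liver-transcript libraries and 5 without the libraries low in lymph node transcripts.

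No set of compared groups had every correlation of same-numbered libraries over 0.1, and the libraries were treated as independent. Between depots the median of these correlations ran from -0.092 (mInhbe) to 0.086 (WT chow). The labels do not say whether a number shared by both depots marks the same mouse, and these correlations cannot settle it. With the replicate number as a block, mInhbe in epididymal fat called 0 of the 29 in place of 2 (Hmgcs1 0.66, Insig1 0.62), and over all comparisons 9 of the 200 calls were lost.

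Over all genes, settings under which the higher or the lower calls moved by over 1.5 times were these, where "no liver", "no epididymis" and "no low lymph node" leave out the libraries named above. For mInhbe, subcutaneous, 2204 and 1597 became 110 and 134 (tissue score). For mInhbe, epididymal, 113 and 60 became 201 and 113 (DESeq2), 50 and 26 (replicate block), 171 and 90 (tissue score). For KO vs WT on chow, subcutaneous, 19 and 17 became 66 and 53 (DESeq2), 12 and 11 (compared groups alone), 8 and 15 (replicate block), 38 and 22 (tissue score), 38 and 26 (no liver), 63 and 39 (no low lymph node). For KO vs WT on HFD, subcutaneous, 1041 and 1647 became 619 and 1409 (compared groups alone), 1715 and 2274 (tissue score). For HFD vs chow in WT, subcutaneous, 3213 and 3063 became 2187 and 1680 (compared groups alone). For HFD vs chow in KO, subcutaneous, 1661 and 1287 became 3169 and 3294 (compared groups alone). For the genotype by diet interaction, subcutaneous, 55 and 249 became 125 and 444 (DESeq2), 112 and 293 (tissue score). For KO vs WT on chow, epididymal, 26 and 73 became 65 and 117 (DESeq2), 51 and 69 (no filter), 72 and 90 (compared groups alone), 46 and 84 (RLE), 42 and 52 (tissue score), 3 and 4 (no epididymis), 88 and 100 (without KO HFD epididymal 4). For KO vs WT on HFD, epididymal, 2559 and 3031 became 1858 and 443 (macrophage score). For HFD vs chow in WT, epididymal, 4346 and 3794 became 77 and 397 (macrophage score). For HFD vs chow in KO, epididymal, 3719 and 2098 became 195 and 340 (macrophage score), 587 and 256 (no epididymis). For the genotype by diet interaction, epididymal, 1178 and 1309 became 13 and 30 (no epididymis), 1308 and 2091 (without KO HFD epididymal 4). For the mInhbe by depot interaction, 631 and 1450 became 970 and 1763 (DESeq2), 268 and 784 (replicate block), 380 and 1004 (without GFP subcutaneous 2). For the depots in KO chow, 3244 and 2329 became 800 and 192 (no epididymis). For the KO on HFD by depot interaction, 1201 and 1063 became 845 and 531 (no liver), 1837 and 1547 (no low lymph node). HFD in KO epididymal fat split as 3719 and 2098, and as 3448 and 2977 with DESeq2.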
